A study of Mus musculus with 5 samples.

Results

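The genes described here are 10 regulators of M-phase promoting factor in male germ cells of the mouse: the kinase genes Cdk1 and Cdk2, the CKS subunit genes Cks1b and Cks2, the phosphatase genes Cdc25a, Cdc25b and Cdc25c, the inhibitory kinase genes Wee1 and Pkmyt1, and Fzr1, which encodes a co-activator of the anaphase promoting complex. They were found by their symbols in a table of 56324 gene rows, and each of the 10 matched 1 row. The samples were spermatocytes (n = 2), the cells in meiosis, and spermatids (n = 3), the haploid cells that meiosis leaves and that turn into sperm. All came from C57Bl/6 males 12 weeks of age with no treatment named, and both cell types were purified by sedimentation at unit gravity (Sta-put). The series title concerns intron retention in meiosis, and the table gives 1 polyadenylated RNA level per gene. The labels do not say whether samples came from separate animals, and the p-values therefore speak only of the spread among these 5 samples, part of which may be technical.

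M-phase promoting factor is the kinase CDK1 bound to a cyclin B. It is built up in an inactive form, because WEE1 and PKMYT1 phosphorylate a threonine and a tyrosine in the ATP-binding loop of the kinase, and it is switched on when CDC25 phosphatases remove these phosphates. CKS proteins bind the kinase and help it recognise substrates that already carry phosphate, and the anaphase promoting complex ends its activity by marking cyclins for destruction. In the testis this switch drives the exit from the long meiotic prophase and both divisions, after which spermatids do not divide again.

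The libraries held 52784231 to 84361908 reads in genes. Of 10 spermatocyte markers, such as Sycp3 and Hormad1, 7 were lower in spermatids and none was higher. Their summed normalized count was 297840 and 270943 in spermatocytes and 181761, 149072 and 139677 in spermatids, a mean 1.81-fold lower. Of these 10 markers, 9 were higher in spermatid replicate 1 than in both other spermatid libraries. All 9 round spermatid markers found and all 10 elongating spermatid markers were higher in spermatids. The spermatocyte samples also held more RNA of Sertoli cells, the somatic nurse cells of the tubule: 12 of 12 markers were lower in spermatids, and their summed normalized count was 71000 and 92257 in spermatocyte replicates 1 and 2 against 2381 to 3515 in spermatids, with none at 0. Leydig cell markers were lower in spermatids for 7 of 8, with sums of 3175 and 3774 against 414 to 636. Summed elongating spermatid markers were 2482747 in spermatid replicate 1 against 929104 and 882250 in the others. Of 8 spermatogonial markers 4 were higher in spermatids and 1 lower, and of 10 markers of myoid, endothelial, macrophage and blood cells 6 and 1. In bulk RNA, fewer cells of a type and less RNA per cell cannot be told apart.

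Of the 10 genes, 9 differed between the cell types: Cdk1, Cdk2, Cks1b, Cks2 and Pkmyt1 were lower in spermatids, and Cdc25a, Cdc25c, Wee1 and Fzr1 were higher (limma on log2(value + 1), Benjamini-Hochberg adjusted p under 0.05 over 28370 genes). Among all genes tested the share called was 77.1%, with 40.6% higher in spermatids and 36.5% lower, so 9 of 10 is near what most genes show. For those 9 genes no value of one cell type overlapped the other, as was the case for 85.8% of all genes tested. Over all 10 genes, Cdc25b included, the median log2 fold change was -0.06 against 0.07 over all genes, and the median of its size was 1.87 against 1.60. Called changes of at least 2-fold were seen in 7 of the 10, 4 of them higher and 3 lower, where the background was 61.9% (33.2% higher and 28.7% lower). At 8-fold or more 1 was higher and 2 were lower, against 19% and 10.2% of all genes and 29.2% in either direction. All values are the authors' normalized counts, in which a size factor per library has been divided out. With equal library totals the median log2 fold change of all genes moved from 0.07 to -0.57 and with quantile normalization to -0.42, and the share of calls that were higher in spermatids went from 52.6% to 38.1% and 41.3%. The calls on the 10 genes stayed at 4 higher and 5 lower under both.

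**Figure D1:**
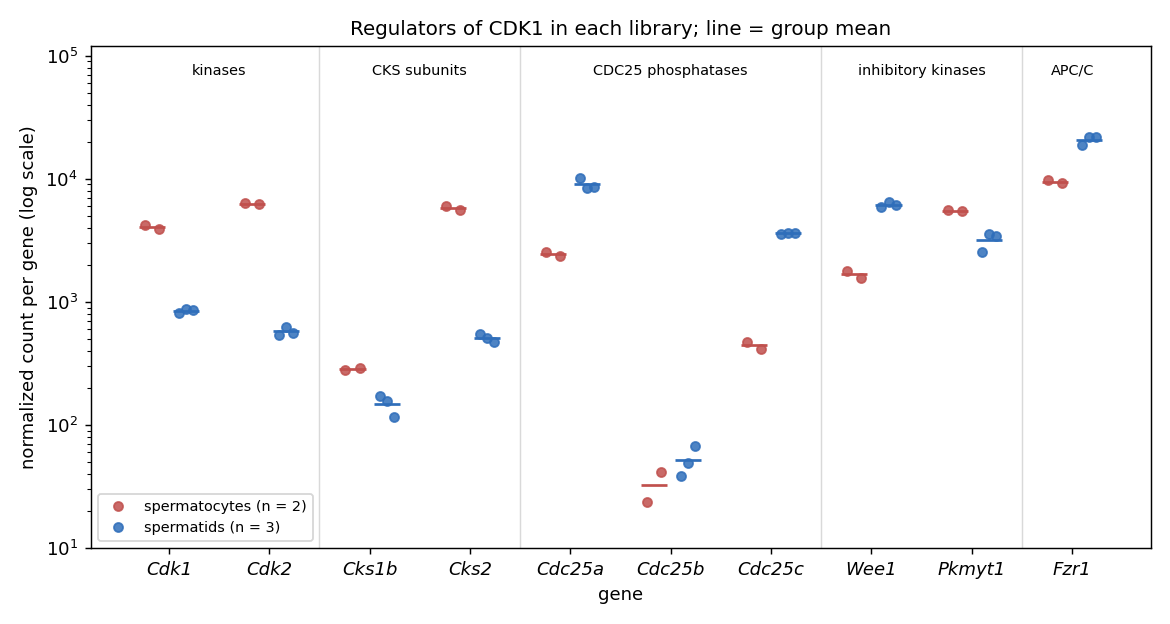
Normalized count (log scale) of each of the 10 genes in every library, with spermatocytes (n = 2) in red and spermatids (n = 3) in blue; each point is 1 library and each line a group mean. The red and blue points are apart for 9 genes and overlap for Cdc25b, the lowest of the 10.

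The kinase genes fell together. Cdk1, which encodes the catalytic subunit of M-phase promoting factor, was at 4199 and 3921 in spermatocytes and at 808, 881 and 867 in spermatids. Both spermatocyte libraries were above every spermatid library, and the mean fell 4.77-fold, from 4060 ± 196 (SD, n = 2) to 852 ± 38.9 (SD, n = 3), with a log2 fold change of -2.25 ± 0.10 (SE, limma adjusted p = 2.9e-06). Cdk2, whose protein sits at the telomeres of meiotic chromosomes and is needed for their pairing, was at 6355 and 6196 in spermatocytes and at 543, 628 and 556 in spermatids. This is a 10.9-fold lower mean in spermatids and a log2 fold change of -3.45 ± 0.11 (limma adjusted p = 7.9e-07). Both genes lie on chromosome 10 (mm10), Cdk1 at 69336635 to 69352939 and Cdk2 at 128697939 to 128705051. Of the 12 Sertoli cell markers, 11 had their higher spermatocyte value in replicate 2, and the sum there was 1.30 times that of replicate 1. In the same pair of libraries replicate 2 held 0.934 of the Cdk1 level of replicate 1 and 0.975 of the Cdk2 level. Of the 10 genes 2 were higher in replicate 2, Cks1b at 1.04 times and Cdc25b at 1.75 times replicate 1. The part of Sertoli cell RNA in the values of the 10 genes was not tested.

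The site on which the inhibitory kinases and the CDC25 phosphatases act is shared by CDK1 and CDK2. The coding sequences below, from GENCODE vM21 transcripts, run from codon 8 to codon 22, 5′ to 3′, and the capitals mark codons 14 and 15, the threonine and tyrosine that WEE1 and PKMYT1 phosphorylate and CDC25 proteins dephosphorylate.
Cdk1: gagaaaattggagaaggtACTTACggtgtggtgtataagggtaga
Cdk2: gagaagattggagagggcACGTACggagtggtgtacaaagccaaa
Of these 45 bases 35 are identical between the kinases.

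The CKS subunit genes fell by very different amounts. Cks2, whose loss stops mouse germ cells in the first meiotic division, was at 6012 and 5590 in spermatocytes and at 546, 506 and 476 in spermatids. It had the lowest log2 fold change of the 10 genes, -3.51 ± 0.11 (SE, limma adjusted p = 7.5e-07), an 11.4-fold lower mean in spermatids. Replicate 2 of the spermatocytes held 0.930 of the Cks2 level of replicate 1. Cks1b, the paralog that also serves in the destruction of the CDK inhibitor p27, was low in both cell types, at 281 and 291 in spermatocytes and 174, 156 and 117 in spermatids. The fitted log2 fold change was -0.96 ± 0.22 (SE, limma adjusted p = 0.0062). Leaving out spermatocyte replicate 2 ended the call, at a limma adjusted p of 0.054 in a range of 0.00027 to 0.054 over 15 alternatives.

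Both CKS genes have close copies elsewhere in the genome that could take or give reads. Cks2 matched 5 other annotated genes and Cks1b matched 3 at 90% identity or more over at least 100 bases of coding sequence, none of them listed under its symbol in the table, and how reads that match several places were counted is not given in the sources used here. Their levels are therefore uncertain. The Cks1b row, at 89415472 to 89418291 on chromosome 3, also lies wholly within the row of Il6ra, which averaged 77.3 in spermatocytes and 153 in spermatids. The paralogs are less alike than these copies. The 240 coding bases of each are shown 5′ to 3′ with the bases that differ in capitals, 63 in all, and the longest run they share is 17 bases.
Cks1b: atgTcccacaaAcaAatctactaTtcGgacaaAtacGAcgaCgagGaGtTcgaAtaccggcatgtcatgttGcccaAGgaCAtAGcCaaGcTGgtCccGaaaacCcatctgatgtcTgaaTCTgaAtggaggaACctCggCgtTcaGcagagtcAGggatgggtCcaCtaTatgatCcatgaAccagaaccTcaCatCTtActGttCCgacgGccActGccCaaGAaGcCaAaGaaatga
Cks2: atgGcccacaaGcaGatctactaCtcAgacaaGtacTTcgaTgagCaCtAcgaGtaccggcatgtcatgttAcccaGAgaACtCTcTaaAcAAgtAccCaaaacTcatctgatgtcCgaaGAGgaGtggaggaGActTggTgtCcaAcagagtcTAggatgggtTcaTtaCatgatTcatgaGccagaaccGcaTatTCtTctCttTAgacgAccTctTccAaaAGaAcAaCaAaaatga

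Of the phosphatase genes 2 rose and 1, Cdc25b, stayed low in every library. Cdc25c, the form classed with entry into M phase, was at 475 and 412 in spermatocytes and at 3589, 3652 and 3609 in spermatids. The spermatid mean of 3617 ± 32.2 (SD, n = 3) was 8.16-fold that of spermatocytes, with a log2 fold change of 3.03 ± 0.11 (SE, limma adjusted p = 1.1e-06). Cdc25c lies on chromosome 18. Cdc25a, which in dividing cells acts from S phase onward, was at 2543 and 2378 in spermatocytes and at 10169, 8354 and 8637 in spermatids. This is 3.68-fold higher, with a log2 fold change of 1.87 ± 0.11 (limma adjusted p = 1.1e-05). Cdc25a was highest in spermatid replicate 1, the library with more elongating spermatid markers, and without that library the log2 fold change of Cdc25a was 1.79 (limma adjusted p = 9.7e-06). It lies on chromosome 9 at 109875577 to 109893888.

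Cdc25b, the form that oocytes need to resume meiosis, was at 23.7 and 41.6 in spermatocytes and at 38.8, 49.6 and 68.1 in spermatids. The groups overlapped, and the log2 fold change of 0.68 had a 95% interval of -0.26 to 1.61 (limma adjusted p = 0.15, and 0.084 to 0.93 in 14 alternatives). These values rest on 22 to 65 reads per library, and the exact Poisson 95% intervals, which cover counting error only, ran from 14.9 to 35.9 in spermatocyte replicate 1 and from 31.9 to 53.3 in replicate 2. A difference in Cdc25b smaller than this spread was not detectable at this depth. The start of its row, at 131186946 to 131198511 on chromosome 2, shares 339 bases with the row of Spef1, which was at 3031 and 2899 in spermatocytes.

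The inhibitory kinase genes went opposite ways. Wee1, which encodes the nuclear kinase that phosphorylates the tyrosine, was at 1797 and 1566 in spermatocytes and at 5892, 6446 and 6120 in spermatids. All 3 spermatid libraries were above both spermatocyte libraries, with a mean 3.66-fold as high and a log2 fold change of 1.87 ± 0.10 (SE, limma adjusted p = 6.7e-06). Pkmyt1, which encodes the membrane-bound kinase that phosphorylates both residues, was at 5572 and 5457 in spermatocytes and at 2535, 3580 and 3460 in spermatids. It fell 1.73-fold, with a log2 fold change of -0.81 ± 0.16 (limma adjusted p = 0.0031). Spermatid replicate 1 had the lowest Pkmyt1 value, and without it the log2 fold change was -0.65 (limma adjusted p = 0.00038). Wee1 lies on chromosome 7 at 110122056 to 110143299 and Pkmyt1 on chromosome 17 at 23726334 to 23736742. The row of 1600010M07Rik, at 7.54 to 44.0 over the 5 libraries, spans all of Wee1, and that of Paqr4 shares 557 bases with Pkmyt1. Wee2, the oocyte relative of Wee1, was at 6.25 ± 0.30 (SD, n = 2) and 13.7 ± 4.28 (SD, n = 3) and was not called (limma adjusted p = 0.066).

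Fzr1 rose in spermatids. It encodes CDH1, which directs the anaphase promoting complex to cyclins and other targets late in division and in cells at rest. It was at 9706 and 9170 in spermatocytes and at 18681, 21714 and 21719 in spermatids, 2.19-fold higher, with a log2 fold change of 1.13 ± 0.10 (SE, limma adjusted p = 6.4e-05). The rise was smaller with other scalings of the libraries. It was 0.48 on the log2 scale with equal totals (limma adjusted p = 0.02) and 0.39 with quantile normalization (limma adjusted p = 0.036). Cdc20, the other co-activator of the complex, went the opposite way, from 18268 ± 898 to 9582 ± 372 (log2 fold change -0.93 ± 0.09, limma adjusted p = 7.3e-05). Fzr1 lies on chromosome 10 at 81366222 to 81378465.

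**Figure D2:**
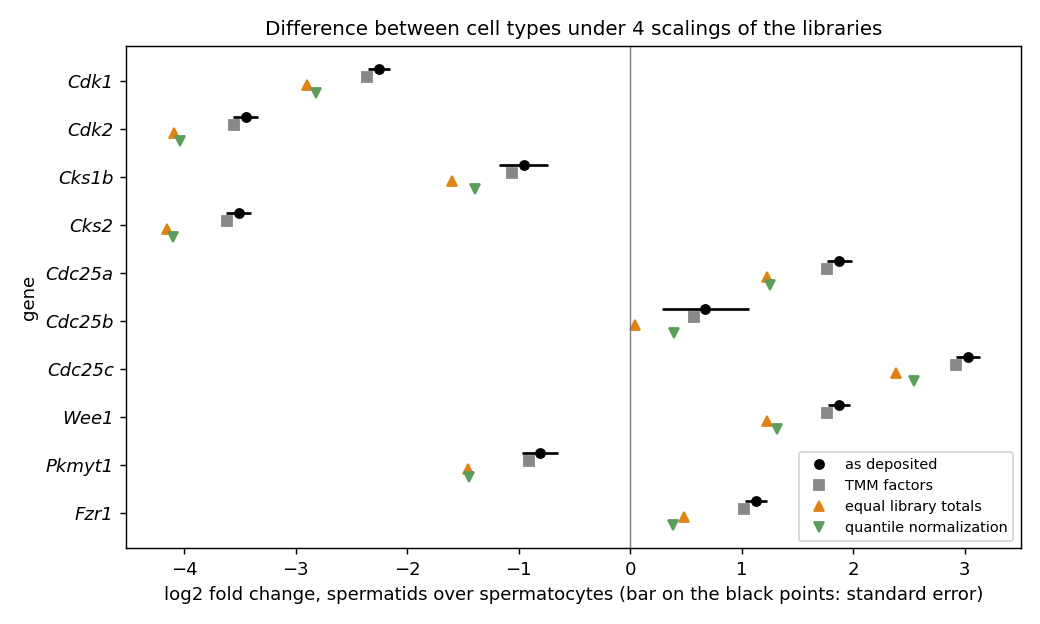
Log2 fold change of spermatids over spermatocytes for each gene under 4 scalings of the 5 libraries, with bars for the standard error on the values as deposited (black). Equal totals and quantile normalization shift every gene to the left, and no gene crosses 0; the nearest is Cdc25b, at 0.05 with equal totals.

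Ratios between genes inside a library depend little on the size factor of that library, though quantile normalization can change them, and 7 were compared on the values as deposited. They are ratios of normalized counts, not corrected for length. The ratio of Wee1 to Pkmyt1 in the spermatocyte libraries was 0.323 and 0.287, and the spermatid libraries had 2.32, 1.80 and 1.77. On the log2 scale the ratio went from -1.72 ± 0.12 (SD, n = 2) to 0.96 ± 0.22 (SD, n = 3). The ratio of Cdk1 to Cdk2 was also higher in spermatids, from 0.661 and 0.633 to 1.49, 1.40 and 1.56, since Cdk2 fell further. The ratio of Cks1b to Cks2 was 0.0469 and 0.0522 in spermatocytes and 0.319, 0.309 and 0.248 in spermatids.

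Within the phosphatase family the balance moved toward Cdc25c, whose ratio to Cdc25a was 0.187 and 0.174 in spermatocytes and 0.353, 0.437 and 0.418 in spermatids. Per kilobase of the longest transcript, Cdc25c made up 20.8% and 19.5% of the summed Cdc25 level in spermatocytes and 33.4% to 38.2% in spermatids, and Cdc25b at most 1.68% in any library. With the median transcript length the shares of Cdc25c were 9.03% and 8.37% in spermatocytes and 15.9% to 18.9% in spermatids. The log2 ratio of Cdc25a to Cdc25b went from 6.25 ± 0.62 to 7.44 ± 0.52, and that of Cdc25c to Cdc25b from 3.77 ± 0.70 to 6.13 ± 0.40. The summed Cdc25 counts were 0.413 and 0.403 of the summed Wee1 and Pkmyt1 counts in spermatocytes, and 1.64, 1.20 and 1.29 times them in spermatids. These sums are not corrected for length, and which of them is larger in spermatocytes depends on the transcript length used. For each of the 7 ratios the groups did not overlap, but several ratios share a gene, and among single genes tested 85.8% had no overlap. Each exact two-sided permutation test over samples gave p = 0.2, also after Benjamini-Hochberg adjustment. That is the smallest p this form of the test can give with 2 against 3 samples.

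**Figure D3:**
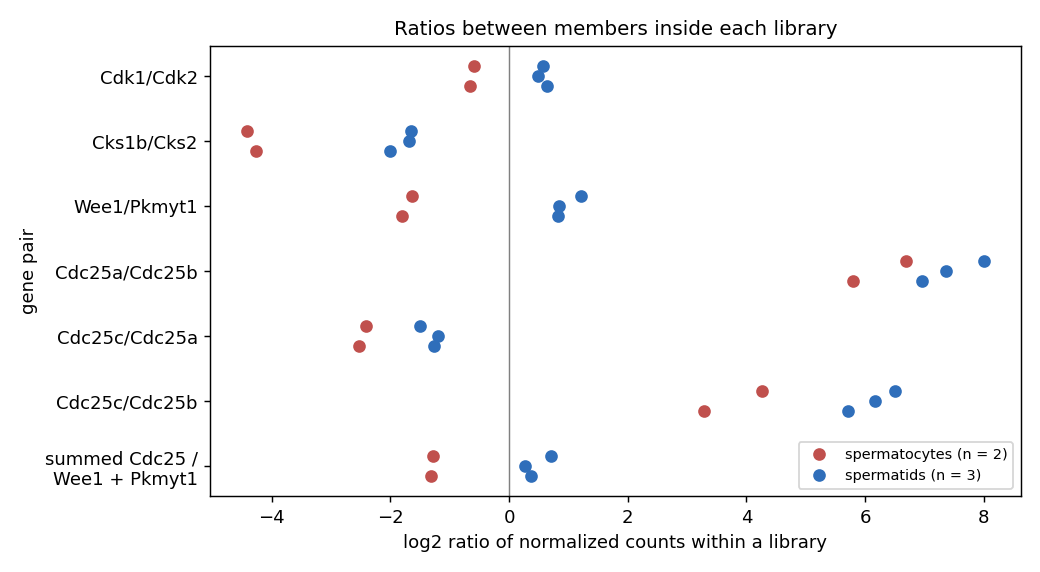
Log2 ratio of normalized counts between members inside each library, spermatocytes (n = 2) in red and spermatids (n = 3) in blue, 1 point per library. Wee1/Pkmyt1, Cdk1/Cdk2 and the summed ratio lie below 0 in both spermatocyte libraries and above 0 in all 3 spermatid libraries. The counts are not corrected for length.

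Levels of different genes were compared per kilobase of the longest GENCODE transcript of each symbol. In spermatocytes the order of the normalized count per kilobase was Cks2 at 8383, Fzr1 at 3087, Cdk2 at 1923, Pkmyt1 at 1900, Cdk1 at 928, Cdc25a at 655, Wee1 at 492, Cks1b at 337, Cdc25c at 168 and Cdc25b at 10.6. Wee1 was thus below Pkmyt1. Cdk2 (SD 34.4) and Pkmyt1 (SD 27.9) did not differ beyond their spread. In spermatids Fzr1 led at 6773, followed by Cdc25a at 2411, Wee1 at 1800, Cdc25c at 1373, Pkmyt1 at 1100 and Cks2 at 736. Here Wee1 (SD 81.5) was above Pkmyt1 (SD 197). Cdk1, Cdk2 and Cks1b followed at 195 (SD 8.88), 176 (SD 14.1) and 175 (SD 33.8), and Cdc25b was at 16.9. Cdk1 was above Cdk2 in each spermatid library, though their ranges overlapped, and Cks1b did not differ from either beyond its own spread. These levels depend on the transcript chosen: with the median length over all transcripts of the symbol, Cdk1 in spermatocytes was at 5842 instead of 928, and Cdc25a in spermatids at 12368 instead of 2411. The order then turned for the kinases in spermatocytes, where Cdk1 was above Cdk2 (2608). Other places turned too. Cdc25a, at 3361, was above Cdk2 and Pkmyt1 (2672) in spermatocytes, and Cdc25c, at 2651, was above Wee1 (1800) in spermatids. In spermatids Cdk1, at 1226, was above Cdk2 at 239, Cks1b at 194 and Cks2 at 736. A row of 1103 bases wholly in exons annotated to Cdk1 was counted apart from the Cdk1 row, at a mean of 36.7 in spermatocytes. Division by the longest transcript may therefore understate Cdk1, and its place below Cdk2 in spermatocytes is not settled by these levels. How far the Cdk1 row covers that transcript was not tested.

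Promoters are shown for Cdk1, Cdk2 and Cks2, which fell most, and for Cdc25a, which rose, because the first 3 moved together. The 250 bases before the start of each gene come from RefSeq on GRCm38.p6, printed 5′ to 3′ on the strand of the gene. Capitals mark the CCAAT box (CCAAT), the cell cycle genes homology region or CHR (TTTGAA) and the core of the cyclic AMP response element (TGACG), searched on both strands.
Cdk1, chr10:69352913-69353162, minus strand: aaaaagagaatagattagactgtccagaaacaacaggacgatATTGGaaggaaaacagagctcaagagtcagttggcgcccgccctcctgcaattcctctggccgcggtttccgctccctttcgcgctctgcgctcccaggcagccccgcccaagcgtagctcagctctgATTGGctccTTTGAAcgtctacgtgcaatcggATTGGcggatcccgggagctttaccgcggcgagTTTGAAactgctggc
Cdk2, chr10:128705052-128705301, minus strand: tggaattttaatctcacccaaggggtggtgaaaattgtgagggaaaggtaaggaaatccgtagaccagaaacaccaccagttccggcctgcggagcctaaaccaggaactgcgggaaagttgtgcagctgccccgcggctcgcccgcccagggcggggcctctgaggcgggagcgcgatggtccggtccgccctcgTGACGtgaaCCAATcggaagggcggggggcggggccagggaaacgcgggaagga
Cks2, chr13:51644982-51645231, plus strand: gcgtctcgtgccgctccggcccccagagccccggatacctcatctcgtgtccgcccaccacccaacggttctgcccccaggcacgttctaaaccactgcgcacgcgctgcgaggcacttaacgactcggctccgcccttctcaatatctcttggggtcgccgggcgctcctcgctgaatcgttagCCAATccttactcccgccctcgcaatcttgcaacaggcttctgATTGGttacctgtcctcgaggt
Cdc25a, chr9:109875329-109875578, plus strand: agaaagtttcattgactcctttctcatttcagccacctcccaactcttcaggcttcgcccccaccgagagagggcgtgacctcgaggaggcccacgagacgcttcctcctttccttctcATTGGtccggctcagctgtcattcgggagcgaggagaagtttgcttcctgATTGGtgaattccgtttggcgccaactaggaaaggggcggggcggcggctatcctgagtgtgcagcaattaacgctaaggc
RefSeq windows of 300 bases (250 before to 50 after the start) were searched for 7 of the 10 genes. These were Cdk1, Cdk2, Cks1b, Cks2, Cdc25a, Cdc25b and Fzr1. The member that rose most was not among the genes searched, so the counts do not speak of it. A CCAAT box was in all 7, whichever way these genes moved, and in 37.4% of 32851 windows of all genes. The CHR was in 2 of 7, Cdk1 and Cks1b, with 2 matches in each, and in 17.9% of all windows. In Cdk1 a CHR match started 15 bases before the start and another 71 bases before it. The TGACG core was in Cdk2 and Cdc25b and in 20.8% of all windows. The short MYB site AACNG was in 6 of 7 and in 80.3% of all windows. A match is a description of letters, not of a factor bound there.

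The remaining genes of the pathway were taken from 6 lists of 66 genes, of which 64 had a row of their own and all 64 were tested. Of these, 19 were higher in spermatids and 27 lower, and their median log2 fold change was -0.12 against 0.07 over all genes tested. The 46 called of 64 are near the share of 77.1% over all genes tested. The counts of each list below stand beside the same background, 40.6% higher in spermatids and 36.5% lower. With equal library totals the counts were 13 and 41, and after quantile normalization 14 and 39, so the split of these lists depends on the scaling. Plk1 and Spdya have no row of their own, since the table joins them with a neighbouring gene, and they were not used here.

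Unlike the CKS subunit genes, no cyclin or chaperone gene of CDK1 was called lower on the values as deposited. Of 6 genes for cyclins and the chaperone HSPA2, 4 were higher in spermatids and none was lower (median 0.92). The mitotic cyclin gene Ccnb1 was at 1281 ± 152 (SD, n = 2) and 2557 ± 181 (SD, n = 3), and Ccnb2 at 10713 ± 417.5 and 19306 ± 106, and both calls ended with equal library totals (limma adjusted p = 0.051 and 0.11). Ccnb3, a cyclin gene of early meiosis, was at 5.51 ± 1.69 and 165 ± 64.8, and Ccna2 at 135 ± 7.03 and 403 ± 21.9. Ccna1, the germ cell cyclin that the meiotic divisions need, was at 18875 ± 1673 and 17689 ± 2438 (limma adjusted p = 0.51), and Hspa2, which helps CDK1 bind its cyclin, at 171715 ± 11439 and 180033 ± 9073 (limma adjusted p = 0.53). With equal totals the list had 2 genes higher and 2 lower, the lower ones being Ccna1 and Hspa2 at log2 fold changes of -0.75 and -0.58.

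Of the genes for CDK2 partners and the CDK-activating kinase, 5 of 5 were lower in spermatids (median -0.82). Ccne2, a cyclin E gene, fell 5.87-fold, from 1869 ± 193 to 319 ± 50.5 (log2 fold change -2.56 ± 0.17, limma adjusted p = 1.6e-05). Cdk7, Ccnh and Mnat1, the kinase, cyclin and assembly factor of the activating complex, had log2 fold changes of -0.82, -0.92 and -0.58. The calls on Mnat1 and on Ccne1 (-0.37, limma adjusted p = 0.048) ended without either spermatocyte replicate, which left 3 of 5 genes called.

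Of 15 genes upstream of CDC25 and WEE1, 3 were higher and 6 lower (median -0.15), and with equal totals 1 and 9. Chek1, whose kinase inhibits CDC25 proteins, rose 7.62-fold, from 203 ± 21.9 to 1548 ± 40.1 (log2 fold change 2.93 ± 0.13, limma adjusted p = 2.3e-06). Ywhag, a 14-3-3 gene, fell from 1014 ± 284 to 166 ± 15.4. Ywhag was at 813 and 1215 in spermatocyte replicates 1 and 2, so like the Sertoli cell markers it was higher in replicate 2, and the part of those cells was not tested. Ywhae, another 14-3-3 gene, was at 13136 ± 1049 and 22005 ± 1300, a call that ended with equal totals (limma adjusted p = 0.32). Aurka, an activator of the pathway, was at 13214 ± 773 and 11924 ± 1444 (limma adjusted p = 0.28).

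The Greatwall kinase and the phosphatase PP2A-B55, which removes the phosphates that CDK1 puts on, had 6 of 11 genes higher in spermatids and 3 lower (median 0.80), and with equal totals 4 and 5. Mastl, the Greatwall gene, rose from 193 ± 8.29 to 881 ± 141 (log2 fold change 2.17 ± 0.17, limma adjusted p = 3.2e-05). Among the B55 subunit genes Ppp2r2d rose from 4304 ± 180 to 19751 ± 1923 and Ppp2r2c from 50.8 ± 23.0 to 178 ± 15.2. Ppp2r2b was at 130.3 and 121 in spermatocytes and at 11146, 2792 and 3168 in spermatids. Its log2 fold change was 5.19 ± 0.56, and 4.56 without spermatid replicate 1. The scaffold gene Ppp2r1b was at 11740 ± 499 and 20464 ± 371, and its call ended with equal totals (limma adjusted p = 0.17).

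Of 19 genes of the anaphase promoting complex, its regulators and its ubiquitin-conjugating enzymes, 4 were higher and 8 lower (median -0.10), and with equal totals 4 and 14. Fbxo43, which encodes the inhibitor EMI2 of that complex, fell 9.03-fold, from 9378 ± 2440 to 1039 ± 442 (log2 fold change -3.23 ± 0.33, limma adjusted p = 0.00013). The subunit genes Anapc1 (735 ± 38.7 and 174 ± 5.12) and Anapc10 (1014 ± 31.5 and 2889 ± 188) changed in opposite directions. Ube2s, a ubiquitin-conjugating enzyme gene, was at 14240 ± 2162 and 15863 ± 488 (limma adjusted p = 0.22). Equal totals turned it to -0.48 on the log2 scale, a call in the lower direction.

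Of 8 genes for CDK inhibitors, 2 were higher and 5 lower (median -1.18), and with equal totals 2 and 6. Cdkn2d and Cdkn2c, inhibitors of the INK4 family that act on other CDKs, fell from 11035 ± 186 to 2139 ± 209 and from 9767 ± 608 to 4047 ± 400. Cdkn1b, the gene of p27, fell from 625 ± 141 to 32.5 ± 20.1 (log2 fold change -4.42 ± 0.56, limma adjusted p = 0.00035). It was at 526 and 725 in spermatocyte replicates 1 and 2, higher in replicate 2 as the Sertoli cell markers were, and the part of those cells was not tested. Cdkn1c, the gene of p57, was higher in spermatids, at 47.7 ± 1.09 and 408 ± 150, and so was Cdkn3, which encodes a phosphatase that acts on CDKs, at 5899 ± 641 and 15854 ± 1787.

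**Figure D4:**
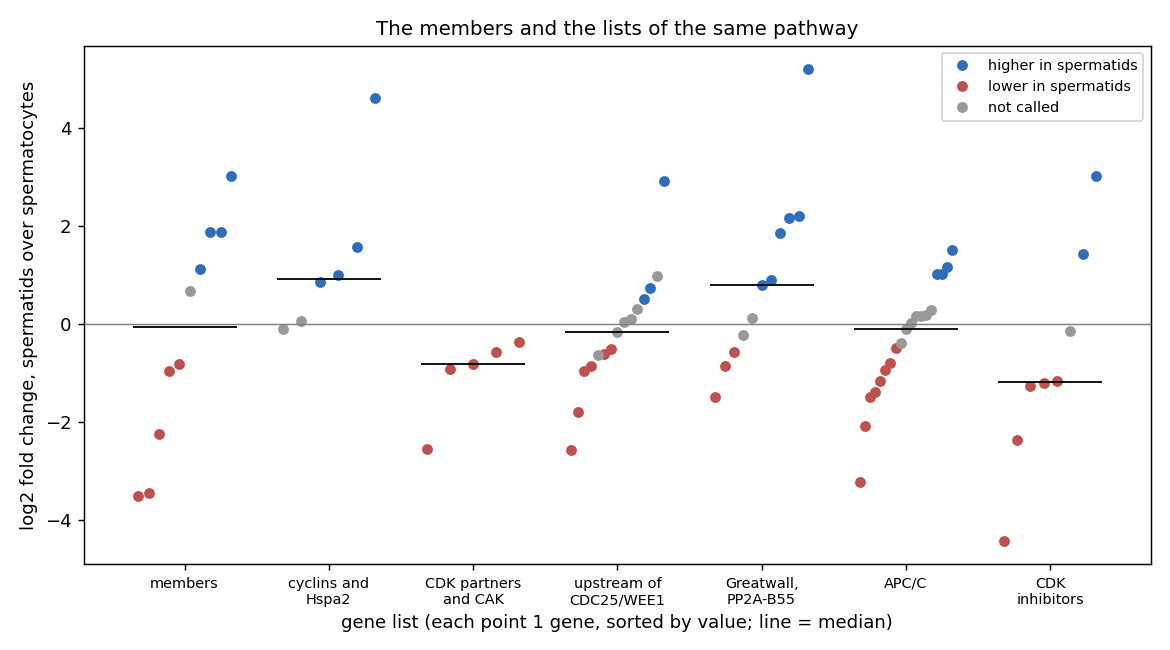
Log2 fold change of spermatids over spermatocytes for the 10 members and for 6 lists of the same pathway, each point 1 gene and each line a list median, with genes higher in spermatids in blue, lower in red and not called in grey. The CDK partners and activating kinase lie below 0 for 5 of 5 genes, while the cyclin list has no red point.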

How the data were processed

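Polyadenylated RNA was sequenced from stranded libraries, per the labels' protocols. The authors deposited a normalized signal, gene counts divided by a DESeq size factor per library, per the submitters' processing notes, which also name STAR 2.4.0 and mm10. For the counting program, its strand setting and its use of reads with several matches the answer is not given in the sources used here, so reads of overlapping rows cannot be told apart. Of the values, 100% were whole multiples of what 1 read is worth in their library (tolerance 0.001), and this gave 52784231 to 84361908 reads per library.

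Groups came from the cell type labels. Replicate numbers follow accession order and pair no samples. Genes with a mean of at least 10 were tested with limma 3.58.1 (eBayes with trend, log2(value + 1), 28370 genes), which understates the change of low genes. Recovered reads were tested with edgeR 4.0.16 and DESeq2 1.42.0 in R 4.3.3. Limma was tested on simulated counts. The named pathway genes were the cyclin list whole, and from each other list the 2 most abundant and up to 3 more with the largest called change, no overlap and a group mean of 100 or more; others are given where a result turns on them. One gene that this rule names is not reported here. Copies were sought with BLAST 2.17.0. Promoter windows of Cdc25c, Wee1 and Pkmyt1 were not searched for motifs. Members and lists were chosen with earlier results of these data known.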

Additional observations from a re-analysis of the deposited data

How the results depend on the processing

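Each count of genes and each named gene was recomputed with other pseudocounts, filters, scalings, eBayes without trend, edgeR, DESeq2 and without each library in turn. The members stayed at 4 higher in spermatids in all of these and at 5 lower except without spermatocyte replicate 2, so that leaving out single libraries gave 4 to 5. Over these the count of all genes higher in spermatids was 10156 to 11729, that of all genes lower in spermatids was 8286 to 10643, and pathway genes gave 19 to 20 higher and 23 to 28 lower. On recovered reads edgeR gave 11537 for all genes higher in spermatids and 10394 for all genes lower in spermatids, and DESeq2 gave 11528 and 10256. Requiring a 2-fold change, a choice made after seeing the data, left 3 members lower and 14 pathway genes lower. With equal library totals 41 pathway genes were lower against 27. The count of all genes lower in spermatids was 17263 with no filter on low values and 6029 with a mean of at least 100, against 10359. The log2 fold change of Hspa2 turned from 0.07 to -0.58 with equal totals, -0.036 with TMM factors and -0.45 after quantile normalization. The log2 fold change of Ube2s turned from 0.16 to -0.48 with equal totals and -0.59 with quantile normalization, and the log2 fold change of Ywhae from 0.74 to -0.012 with quantile normalization. Beyond the scaling itself, the cause was not tested. Cdc25b was not tested with a mean of at least 100. No paired analysis was possible because the labels give the 2 groups no shared replicate numbers. Depth limits Cdc25b, with 22 to 65 reads per library.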

Other observations

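Several unnamed rows of the table lie inside or beside the members, and not all of those inside followed their gene. An unnamed row of 3119 bases inside Wee1, on chromosome 7 from 110126900 to 110130018 (mm10) and with 0% of its bases in a Wee1 exon of GENCODE vM21, was at 91.6 and 86.5 in spermatocytes and at 10.9, 23.8 and 19.9 in spermatids. It fell 4.90-fold (log2 fold change -2.30 ± 0.40, SE, limma adjusted p = 0.0016), whereas the Wee1 row was 3.66-fold higher in spermatids. A row of 135 bases wholly in Wee1 exons, from 110142241 to 110142375, also fell. It was at 38.8 and 40.9 in spermatocytes and at 3.10, 3.96 and 7.34 in spermatids, the latter on 2 to 7 reads. Its log2 fold change was -2.88 ± 0.45 (SE, limma adjusted p = 0.0009). Both rows lie within 1600010M07Rik. A row of 1880 bases in an intron of Cks2, on chromosome 13 from 51645699 to 51647578, fell 5.09-fold, from 947 ± 123 (SD, n = 2) to 186 ± 45.7 (SD, n = 3), where Cks2 itself fell 11.4-fold. The strand of these rows is not given, and whether those in introns are retained introns or separate transcripts was not tested.

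An unnamed row that lies 59 bases from the Pkmyt1 row, on chromosome 17 from 23725093 to 23726275, fell 35.8-fold, from 169 and 194 in spermatocytes to 3.10, 7.93 and 4.19 in spermatids (log2 fold change -4.98 ± 0.43, limma adjusted p = 5.4e-05), against 1.73-fold for Pkmyt1. An unnamed row on chromosome 10 from 81366902 to 81367405, wholly in Fzr1 exons, fell 1.48-fold, from 381 ± 12.4 to 257 ± 25.2 (limma adjusted p = 0.015), whereas Fzr1 rose. A row of 1103 bases beside Cdk1, all in exons annotated to Cdk1, was 5.11-fold lower in spermatids, and Cdk1 4.77-fold. That row held 37 and 50 reads in spermatocytes and 6 in each spermatid library, so its fold is uncertain (log2 fold change -2.22 ± 0.38, SE). These rows were singled out after their values were seen.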
